A study of Mus musculus with 4 samples.

Results

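Single-cell transcriptomes of heterozygous Crebbp germinal center (GC) B cells were compared with those of WT across all genes, to see which differences returned in several GC subtypes and were not found in T cells of the same libraries. The C mouse carried Cg1Cre+/- and Crebbp fl/+, and the WT mouse carried Cg1Cre+/- without a floxed allele. Both were on a C57BL/6J background and described as 8-week-old females, and their splenic B220+IgD- cells were taken on day 10 of a response to sheep red blood cells (SRBC). The CK (Cg1Cre+/-, Crebbp fl/+, Kmt2d fl/+) and K (Cg1Cre+/-, Kmt2d fl/+) mice gave a second pair that also differed in Crebbp, so that 2 of 4 libraries enter the main comparison. Each genotype was 1 mouse and 1 library, so no difference below has a replicate check, no test was run, and all 95% intervals cover counting error only.

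Crebbp encodes a lysine acetyltransferase that is recruited to enhancers by transcription factors and acetylates histone H3 there. In the GC, centroblasts (CB) divide and mutate their immunoglobulin genes, centrocytes (CC) are selected by contact with T cells, and some cells leave as memory precursors. The Cre here is driven from the Cγ1 (Ighg1) locus, which is transcribed after B cell activation and is silent in T cells, so T cells share the library and the mouse but not the recombined allele. Non-GC B cells can include both cells that activated the locus and cells that did not.

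The submitted annotation named 1227 GC B cells in WT and 2041 in C. They fell into early CB (38 in WT and 110 in C), CB (183 and 421), cells in transition from CB to CC (trans_CB_CC, 471 and 760), CC (382 and 515) and prememory cells (145 and 225). Recycling cells (8 and 10) were too few to compare. T cells were unannotated barcodes with at least 2 UMIs of Cd3e, Cd3d and Cd3g together (1691 and 2214), and non-GC B cells were gated on B cell genes without GC genes (1415 and 2648). UMIs of each class were summed per library and expressed as CPM, which sets every class of a library to the same total. A gene was assessed in a subtype with at least 50 UMIs over both libraries and called at a 1.5-fold difference. It was termed recurring when called in the same direction in at least 3 of the 5 subtypes and in the other direction in none.

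The libraries held 34259440 UMIs in WT and 33270825 in C, with a median of 4931 UMIs per annotated cell in WT and 4053 in C. All 7 GC B markers were detected in every one of the 5 subtypes in both libraries, with summed levels of 1794 to 2211 CPM from early CB to CC but 127 CPM in WT against 181 CPM in C in prememory cells. T cell markers summed to 5156 CPM in WT against 5388 CPM in C in T cells, against 11.1 to 35.0 CPM in GC subtypes. The T cells also held B cell markers at 1232 CPM in WT against 1459 CPM in C, and the part of such transcripts in the T cell values was not tested. WT and C shared 22 barcodes, of which 1 was annotated in both. Median mitochondrial content and UMIs per cell were lower in C than in WT in each of the 5 subtypes and in T cells. Transcripts of the Y-linked gene Ddx3y were present in both libraries (2272 UMIs in WT and 2286 in C) and Xist was nearly absent (2 and 1 UMIs), which goes against the described sex.

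Crebbp itself (ENSMUSG00000022521, chromosome 16 from 4081328 to 4213997, minus strand, GRCm38) had 64.4 CPM in WT against 45.2 CPM in C in CB, and 78.7 and 43.4 CPM in trans_CB_CC. It had 61.8 CPM in WT against 41.4 CPM in C in CC, and 62.5 and 54.8 CPM in prememory cells. The level in C was thus below that in WT in each of the 4 subtypes assessed, and its log2 ratio ran from -0.86 (-1.18 to -0.54) in trans_CB_CC to -0.19 (-0.91 to 0.54) in prememory cells, with a median of -0.54. In T cells the level was 80.3 CPM in WT against 74.7 CPM in C, a log2 ratio of -0.10 (-0.27 to 0.07). Non-GC B cells had 79.2 and 71.3 CPM, a log2 ratio of -0.15 (-0.38 to 0.08). The 1.5-fold limit was passed in 1 subtype, so Crebbp is not among the recurring genes. Because reads come from 3' ends and the floxed exon may not be covered, this level does not check the genotype. The median log2 ratio of Crebbp over WT was also -0.69 in K, which carries no floxed Crebbp allele, and -0.78 in CK. A lower level than in WT was thus not particular to the libraries with that allele.

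**Figure D1:**
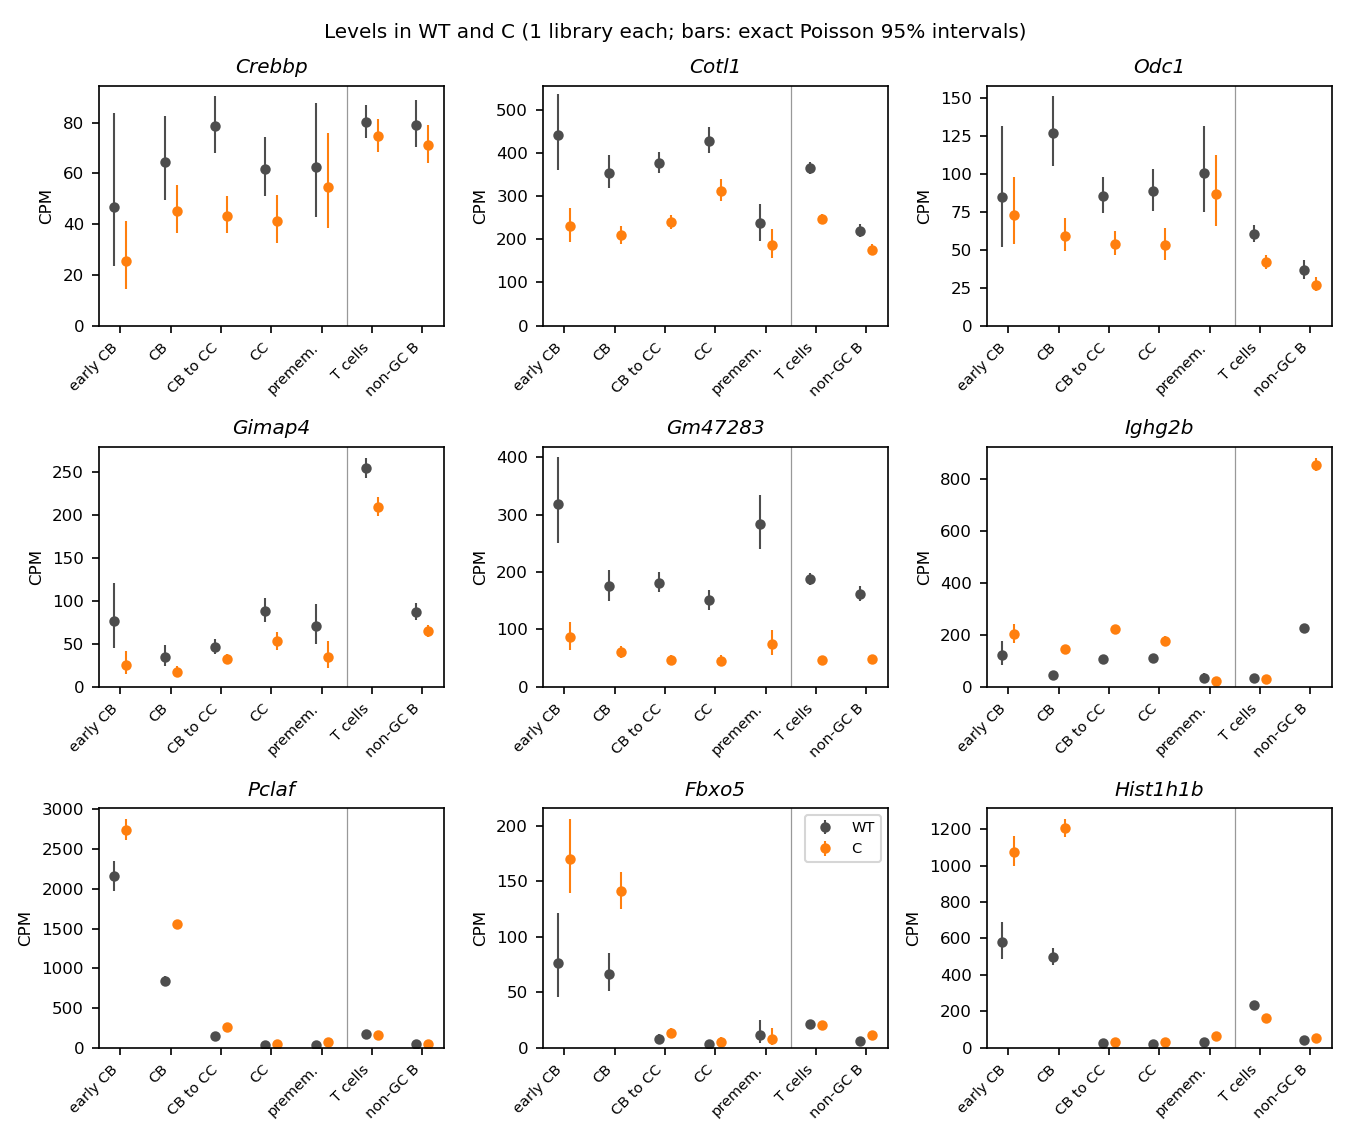
Levels of Crebbp and 8 recurring genes in WT (grey) and C (orange) in CPM (y axes, linear, from 0) by cell class (x axes); each point is 1 library and bars are exact Poisson 95% intervals. Gm47283 was below WT in every class, Pclaf, Fbxo5 and Hist1h1b were high in early CB and CB, and Ighg2b was highest in non-GC B cells of C, at 855 CPM.

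Of 31053 genes, 5541 were assessed in at least 3 subtypes. Among these, 12 were recurring lower (0.217%) and 15 recurring higher (0.271%) in C. A single call was far more common, with 575 genes lower and 671 higher in 1 subtype, and 34 lower and 58 higher in 2 subtypes. Within single subtypes, the share of assessed genes called lower was 4.65% in early CB, 4.30% in CB, 2.87% in trans_CB_CC, 2.58% in CC and 4.35% in prememory cells. The share called higher was 8.93%, 5.43%, 2.55%, 3.21% and 3.90% in the same order. A call in all 5 subtypes was made for 1 gene, which was lower. By comparison, T cells had 253 genes lower (2.66%) and 116 higher (1.22%) at 1.5-fold of 9523 assessed, and non-GC B cells 218 lower (2.59%) and 155 higher (1.84%) of 8421. No recurring gene was an immunoglobulin variable or mitochondrially encoded gene.

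Of 5533 genes assessed in at least 3 subtypes and in T cells, 88.0% had a ratio under 1.2-fold in T cells, 6.20% were lower and 5.84% higher there by at least that much, and 47.5% had a log2 ratio below 0. Of the 12 recurring lower genes, 2 were absent from T cells, meaning a ratio there under 1.2-fold (H2-Q6 and Ankrd13a), 7 were lower there by 1.2- to 1.5-fold, and 3 by at least 1.5-fold (among them Gm47283 and A530032D15Rik). All 12 had a log2 ratio below 0 in T cells. Of the 15 recurring higher genes, 9 were absent from T cells, 2 were higher there by 1.2- to 1.5-fold and 4 were lower there by at least 1.2-fold. None was higher by 1.5-fold in T cells. Ighg1 was among the 9 and Ighg2b among the 4. The part of B cell transcripts in the T cell values of both immunoglobulin genes was not tested, so their place here cannot be read as a trait of T cells. The difference between GC subtypes and T cells has no replicates and was not tested.

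**Figure D2:**
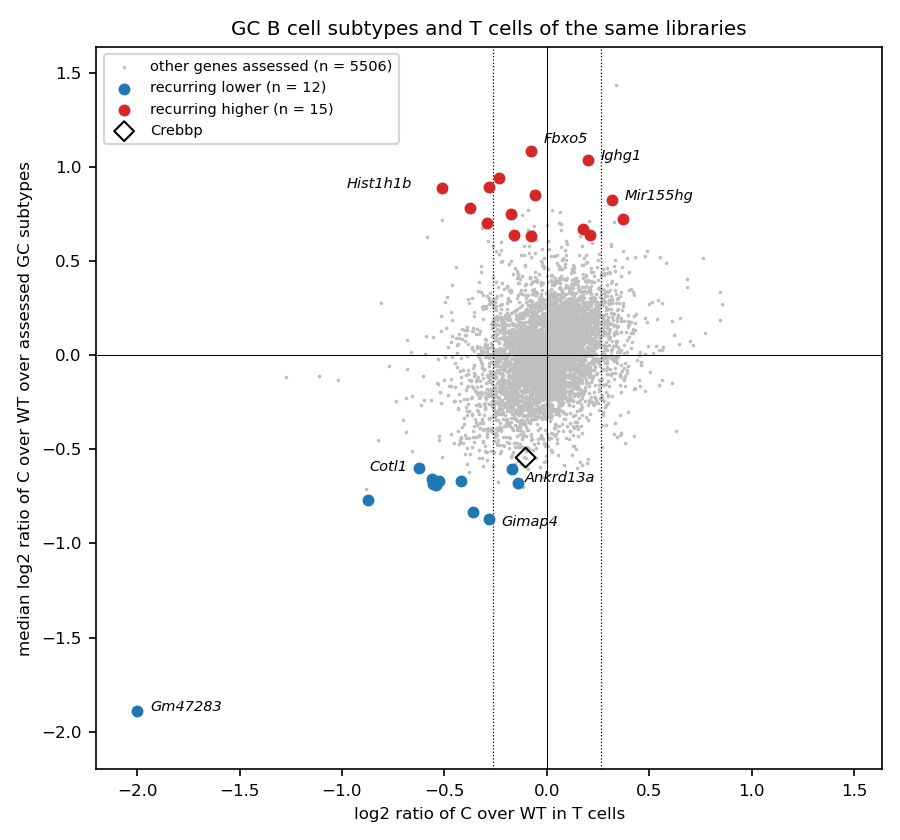
Median log2 ratio of C over WT over the assessed GC subtypes (y axis) against the log2 ratio in T cells of the same libraries (x axis), 1 point per gene, with recurring lower genes in blue, recurring higher genes in red and Crebbp as a diamond; dotted lines mark 1.2-fold in T cells. The lower genes all lie left of 0 on the x axis, and the higher genes lie on both sides, from -0.51 (Hist1h1b) to 0.37 (Nedd4).

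The lower genes without a difference in T cells were both of low abundance, and with most intermediate and several higher genes they are named after their values were seen. H2-Q6, a nonclassical MHC class I gene of a family of similar copies whose reads are hard to assign, had 34.3 CPM in WT against 19.7 CPM in C in CB, 25.7 and 16.5 CPM in CC, and 87.1 and 53.2 CPM in prememory cells. In trans_CB_CC it had 11.4 CPM in WT against 12.4 CPM in C, so the lower level was not found in that subtype. Its T cell levels were 69.1 and 62.6 CPM, a log2 ratio of -0.14 (-0.33 to 0.04). Ankrd13a, whose protein binds ubiquitin chains on internalized receptors, had 40.5 CPM in WT against 25.5 CPM in C in CB, 35.1 and 23.3 CPM in trans_CB_CC, and 38.8 and 25.5 CPM in CC. The 3 log2 ratios of Ankrd13a lay between -0.67 and -0.59, against -0.17 (-0.46 to 0.12) in T cells, and its interval in CB reached -0.03.

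Gimap4 had the next lowest median after Gm47283. It encodes a GTPase of the immunity-associated family, which is known for roles in lymphocyte survival. It had 34.3 CPM in WT against 16.8 CPM in C in CB, 88.0 and 52.6 CPM in CC, and 70.1 and 35.0 CPM in prememory cells. The log2 ratio was -1.03 (-1.75 to -0.30) in CB and -0.74 (-1.12 to -0.37) in CC. In trans_CB_CC it was -0.53 (-0.93 to -0.14), so C lay below WT in the 4 subtypes assessed. T cells express the gene more strongly and had 254 CPM in WT against 209 CPM in C, a log2 ratio of -0.28 (-0.38 to -0.18). Of the 8 Gimap genes, all 8 were below 0 in CB, 6 in trans_CB_CC, 5 in CC and 6 in prememory cells. The shares of all genes below 0 were 51.6%, 48.8%, 46.5% and 47.5% in the same order. T cells also had 6 of 8 below 0 and non-GC B cells 3 of 8, against 51.8% and 51.9% of all genes. In prememory cells 3 were called lower and 1 higher (4.35% and 3.90% of all genes). List medians were -0.24 in CB, -0.19 in trans_CB_CC, -0.08 in CC and -0.39 in prememory cells. They were -0.06 in T cells and 0.05 in non-GC B cells. No other Gimap gene was recurring.

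Odc1 and Cotl1 were lower in several subtypes, with log2 ratios below 0 in T cells as well. Odc1, the rate-limiting enzyme of polyamine synthesis, had 127 CPM in WT against 59.2 CPM in C in CB, 85.2 and 53.7 CPM in trans_CB_CC, and 88.6 and 53.1 CPM in CC. Its log2 ratio was -1.10 (-1.47 to -0.73) in CB but -0.22 in early CB, where its interval included 0, and -0.21 (-0.78 to 0.36) in prememory cells, and -0.53 (-0.74 to -0.31) in T cells. Cotl1, which encodes an F-actin-binding protein of the immune synapse, had 442 CPM in WT against 231 CPM in C in early CB, 354 and 209 CPM in CB, and 377 and 239 CPM in trans_CB_CC. Along the subtypes its log2 ratio went from -0.94 in early CB through -0.76, -0.66 and -0.46 to -0.34 in prememory cells, and was -0.56 (-0.65 to -0.47) in T cells.

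Usp7, a deubiquitinase, had 196 CPM in WT against 97.0 CPM in C in early CB, 142 and 87.1 CPM in CB, and 109 and 68.5 CPM in CC, with a log2 ratio of -0.42 (-0.61 to -0.23) in T cells. Usp7 lies on chromosome 16 from 8689595 to 8792308, within 5 Mb of Crebbp. Of 16 assessed genes within 5 Mb of Crebbp, 8 had a median log2 ratio below 0, the median over them was -0.0039, and Usp7 was the 1 recurring gene.

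Rsrp1, an arginine- and serine-rich nuclear protein gene, had 149 CPM in WT against 74.8 CPM in C in early CB, 176 and 102 CPM in trans_CB_CC, and 197 and 123 CPM in CC. Its log2 ratio lay between -0.99 and -0.57 in the 5 subtypes, and was -0.56 (-0.66 to -0.45) in T cells and -0.63 (-0.76 to -0.50) in non-GC B cells. Tada2b, a subunit of the SAGA acetyltransferase complex, had 36.4 CPM in WT against 23.1 CPM in C in CB and 23.7 and 13.3 CPM in trans_CB_CC, with -0.36 (-0.77 to 0.05) in T cells. A530032D15Rik and Csprs belong to a cluster of near-identical copies, so their counts are uncertain. A530032D15Rik had 161 CPM in WT against 92.4 CPM in C in CC, with a log2 ratio of -0.87 in T cells, and Csprs 37.7 and 23.4 CPM, with -0.54 in T cells.

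Gm47283 (chromosome Y from 90784738 to 90816464) was the 1 gene called in all 5 subtypes. It had 319 CPM in WT against 85.9 CPM in C in early CB, 175 and 60.1 CPM in CB, and 182 and 47.2 CPM in trans_CB_CC. T cells had 187 CPM in WT against 46.8 CPM in C, with a log2 ratio between -2.18 and -1.83 by its interval, beside a GC median of -1.89. Non-GC B cells had a log2 ratio of -1.78. It lies near the end of chromosome Y in a region with copies elsewhere, so its counts are uncertain. The WT library stood highest among the 4 genotypes, with a median log2 ratio over WT of -1.36 in K and -2.15 in CK.

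**Figure D3:**
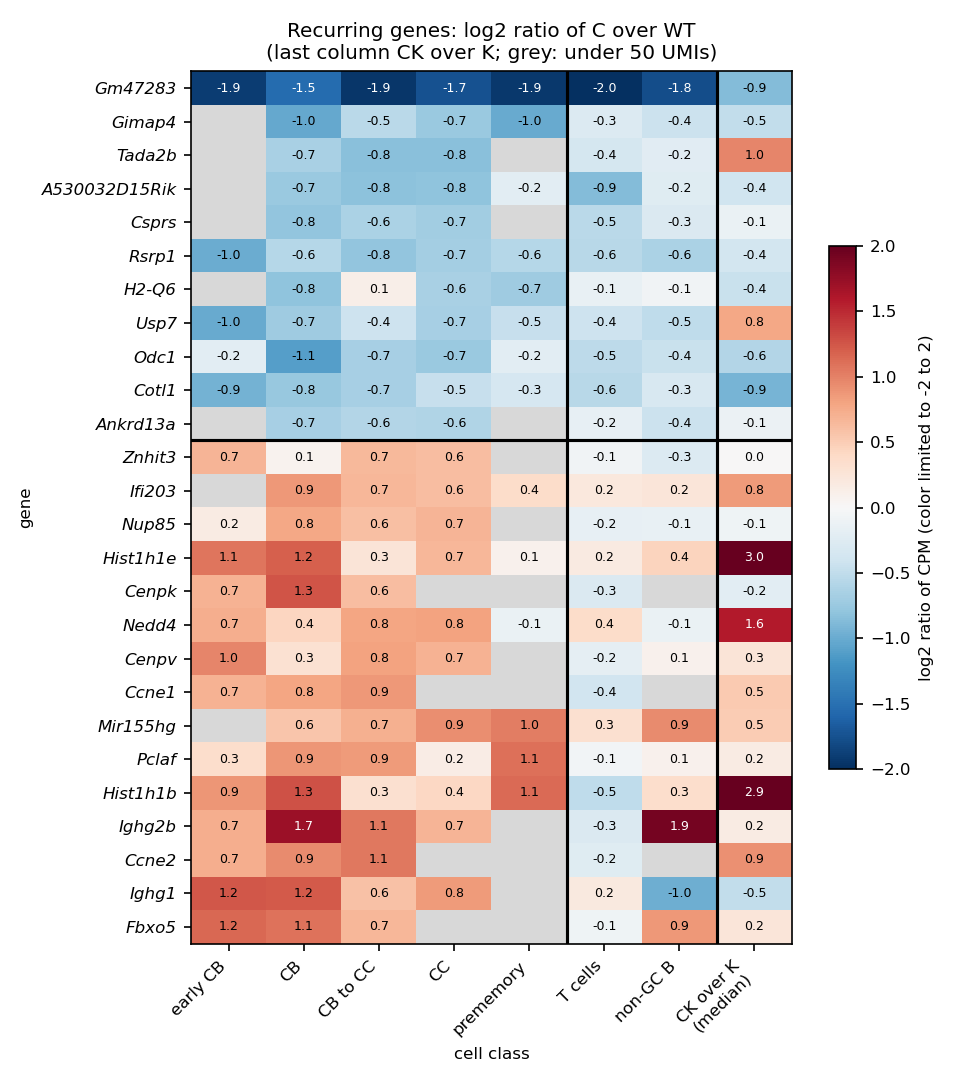
Log2 ratio of C over WT for 11 of the 12 recurring lower genes (above the horizontal line) and the 15 recurring higher genes (below it) in 5 GC subtypes, T cells and non-GC B cells, with the median log2 ratio of CK over K in the last column; blue is lower, red is higher and grey is under 50 UMIs. The lower genes shown are all below 0 in T cells, but H2-Q6 and Ankrd13a are pale there, at under 1.2-fold. Most higher genes are pale or blue in T cells.

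Several higher genes act in DNA replication and its control. Fbxo5 (Emi1), an inhibitor of the anaphase-promoting complex, had 76.5 CPM in WT against 170 CPM in C in early CB and 66.5 and 141 CPM in CB. Its log2 ratios were 1.15 (0.42 to 1.96) and 1.08, against -0.08 (-0.42 to 0.26) in T cells. Pclaf, which binds PCNA at replication forks, had 839 CPM in WT against 1554 CPM in C in CB, 147 and 265 CPM in trans_CB_CC, and 34.1 and 73.0 CPM in prememory cells. It differed less in early CB, where it was at 2155 and 2742 CPM, a log2 ratio of 0.35 (0.20 to 0.49), and in T cells its ratio was -0.06 (-0.17 to 0.06).

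The cyclin E genes, which drive entry into S phase, were both recurring higher at low levels. Ccne1 had 51.0 CPM in WT against 82.7 CPM in C in early CB, with a log2 ratio of 0.78 in CB, and 11.8 and 21.5 CPM in trans_CB_CC. Ccne2 was at 59.5 and 98.6 CPM in early CB and at 6.12 and 12.7 CPM in trans_CB_CC, with a log2 ratio of 0.94 in CB. Intervals of the log2 ratio included 0 in early CB for both genes and in CB for Ccne1. In T cells the ratio was -0.38 (-0.78 to 0.02) for Ccne1 and -0.24 (-0.98 to 0.50) for Ccne2.

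Linker histone genes were also higher. Hist1h1b had 582 CPM in WT against 1077 CPM in C in early CB, 499 and 1207 CPM in CB, and 28.4 and 62.4 CPM in prememory cells, but 235 and 165 CPM in T cells. In prememory cells 1 cell gave 19 of the 41 UMIs in C, and without the highest cell of each library the log2 ratio there went from 1.13 to 0.44, so that the gene no longer recurred. The log2 ratio was 1.27 (1.13 to 1.42) in CB and -0.51 (-0.62 to -0.40) in T cells. Hist1h1e was at 191 and 402 CPM in early CB, at 218 and 502 CPM in CB, and at 54.1 and 86.0 CPM in CC, with 0.18 (0.04 to 0.31) in T cells. Of the replication-dependent histone genes assessed in CB, 16 of 20 were called higher and 0 lower, with a median log2 ratio of 1.01, where 5.43% of all genes were called higher. In the other subtypes 5 of 7 were called higher in early CB, 0 of 6 in trans_CB_CC, 2 of 3 in CC and 1 of 2 in prememory cells. None was called lower in these, and the shares of all genes called higher were 8.93%, 2.55%, 3.21% and 3.90%. In T cells 1 of 24 was called higher and 5 lower, with a median of -0.03, where 1.22% and 2.66% of all genes were called. Most such transcripts lack a poly(A) tail, so these libraries catch a part of them.

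Cenpk, a subunit of the inner kinetochore, had 34.3 CPM in WT against 81.8 CPM in C in CB, a log2 ratio of 1.25 (0.71 to 1.84), and 11.6 and 9.48 CPM in T cells. Cenpv, a protein of centromeric chromatin, was at 68.0 and 134 CPM in early CB, at 57.5 and 100 CPM in trans_CB_CC, and at 28.4 and 46.2 CPM in CC. The nuclear pore gene Nup85 had log2 ratios of 0.77 in CB, 0.60 in trans_CB_CC and 0.68 in CC, and -0.16 in T cells.

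Promoters of 8 recurring lower and 10 recurring higher genes could be matched to RefSeq windows (GRCm38.p6, 250 bases before to 50 after the start). The CREB site TGACGTCA was searched on both strands, since Crebbp is named after its binding to CREB, and the E2F site because many replication genes carry it. TGACGTCA was found in none of the 18, against 2.03% of all 27025 genes, and the E2F letters TTTNGCGC in none, against 1.57%. A wider E2F form, TTTNNCGC, which takes in the narrower one, was searched after that and, counting a gene with a match in any of its windows, was found in 3 of the 10 higher and 0 of the 8 lower genes, against 5.93% of all genes. A match is a description and not a bound site. The 3 promoters are shown 5′ to 3′ with the match in capitals, which starts at position -50 in Cenpk, -5 in Pclaf and 38 in Hist1h1b, counted from 0 at the start of transcription.
Cenpk: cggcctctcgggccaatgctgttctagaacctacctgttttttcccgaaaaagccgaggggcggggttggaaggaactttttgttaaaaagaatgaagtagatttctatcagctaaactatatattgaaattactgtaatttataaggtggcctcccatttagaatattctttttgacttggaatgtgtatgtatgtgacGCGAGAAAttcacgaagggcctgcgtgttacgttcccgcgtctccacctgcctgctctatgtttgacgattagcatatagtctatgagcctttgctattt
Pclaf: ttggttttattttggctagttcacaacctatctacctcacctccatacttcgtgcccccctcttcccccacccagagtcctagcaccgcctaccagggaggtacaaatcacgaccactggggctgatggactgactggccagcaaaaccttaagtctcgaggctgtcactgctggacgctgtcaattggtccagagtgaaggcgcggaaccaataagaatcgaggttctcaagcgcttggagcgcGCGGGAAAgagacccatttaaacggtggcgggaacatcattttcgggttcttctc
Hist1h1b: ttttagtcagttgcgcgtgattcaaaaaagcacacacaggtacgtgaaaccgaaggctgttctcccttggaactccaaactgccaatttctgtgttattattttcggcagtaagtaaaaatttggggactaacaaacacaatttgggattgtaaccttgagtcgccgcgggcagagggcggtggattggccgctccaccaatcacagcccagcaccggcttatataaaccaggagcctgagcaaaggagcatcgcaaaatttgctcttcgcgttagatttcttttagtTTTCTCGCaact
The windows are chr13:104229138-104229437 (plus strand) for Cenpk, chr9:65890073-65890372 (plus strand) for Pclaf and chr13:21780576-21780875 (minus strand) for Hist1h1b.

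The remaining higher genes were of several kinds. Ighg1, the IgG1 constant region gene, had 51.0 CPM in WT against 121 CPM in C in early CB, 79.0 and 184 CPM in CB, 113 and 170 CPM in trans_CB_CC, and 109 and 196 CPM in CC. In non-GC B cells it was the other way, at 660 CPM in WT against 334 CPM in C. Ighg2b was at 43.7 and 143 CPM in CB, a log2 ratio of 1.72 (1.25 to 2.22), and at 106 and 221 CPM in trans_CB_CC. In non-GC B cells the level was 227 CPM in WT against 855 CPM in C, but fewer of these cells held a UMI of it in C, 3.81% against 7.49% in WT, and 1 cell gave 2201 of the 4355 UMIs in C. Likewise 1 non-GC B cell gave 1790 of the 2402 Ighg1 UMIs in WT and 1 gave 1494 of 1701 in C, so these non-GC B values rest on single cells. In CB the share of cells with an Ighg2b UMI was 10.4% in WT and 19.7% in C, beside 5.85% and 3.88% of T cells, and in CC 13.6% and 14.0%. T cells had a log2 ratio of -0.28 (-0.56 to -0.01). There 1 cell gave 66 of the 248 Ighg2b UMIs in WT, and without the highest cell of each library the log2 ratio was -0.045. The Cre allele that both mice carry is inserted at the Ighg1 locus. For both genes, as for all values here, genotype and mouse cannot be told apart.

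Mir155hg, the host transcript of miR-155, which is induced upon B cell activation, had 11.0 CPM in WT against 18.0 CPM in C in trans_CB_CC, 19.7 and 37.7 CPM in CC, and 47.3 and 95.8 CPM in prememory cells. The log2 ratios were 0.71 (0.03 to 1.42), 0.94 (0.34 to 1.56) and 1.02 (0.33 to 1.75), against 0.32 in T cells and 0.95 (0.48 to 1.44) in non-GC B cells. The share of cells with a Mir155hg UMI was 9.42% in WT and 8.93% in C in CC and 10.3% and 14.2% in prememory cells, beside 6.39% and 6.28% of T cells, and the highest CC cell of C gave 7 of 71 UMIs. Nedd4, a ubiquitin ligase, was at 33.9 and 58.4 CPM in trans_CB_CC and at 30.6 and 53.6 CPM in CC, but at 153 and 140 CPM in prememory cells. Ifi203, an interferon-inducible gene of a family of similar copies, had log2 ratios of 0.86 in CB, 0.67 in trans_CB_CC and 0.61 in CC, and of 0.36 in prememory cells, where it was most abundant, at 237 and 304 CPM. Znhit3, a zinc finger gene, was at 23.7 and 37.2 CPM in trans_CB_CC.

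The choice of cells moved the higher genes more than the lower ones. The annotation holds no cell of 2500 or more genes, a limit read from the table, and cells at or above that limit, labelled by their nearest annotated neighbors, raised CB from 183 to 643 in WT and from 421 to 826 in C. With them, 16 of 7125 genes were recurring lower (0.225%) and 7 recurring higher (0.0982%), of which 6 and 3 were among the 12 and 15. Crebbp was among the 16 lower genes, as was Cd72, and both were at a ratio under 1.2-fold in T cells. At a 1.3-fold limit with these cells, a setting chosen after the values were seen, all 12 lower genes recurred, and their median went from -0.68 to -0.60. The median over the 15 higher genes went from 0.78 to 0.32, and 4 of them recurred at 1.3-fold (Ighg1, Ighg2b, Mir155hg and Nedd4). In CB with the added cells, Fbxo5 had 126 CPM in WT against 135 CPM in C, Pclaf 1493 and 1660 CPM, and Hist1h1b 1208 and 1410 CPM. Crebbp was at 74.6 and 44.7 CPM in CB with them, and its median log2 ratio was -0.66. Ighg1 no longer differed in early CB, at 146 and 154 CPM (0.08), and Mir155hg had a log2 ratio of 0.0049 there, so these genes recurred through other subtypes.

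**Figure D4:**
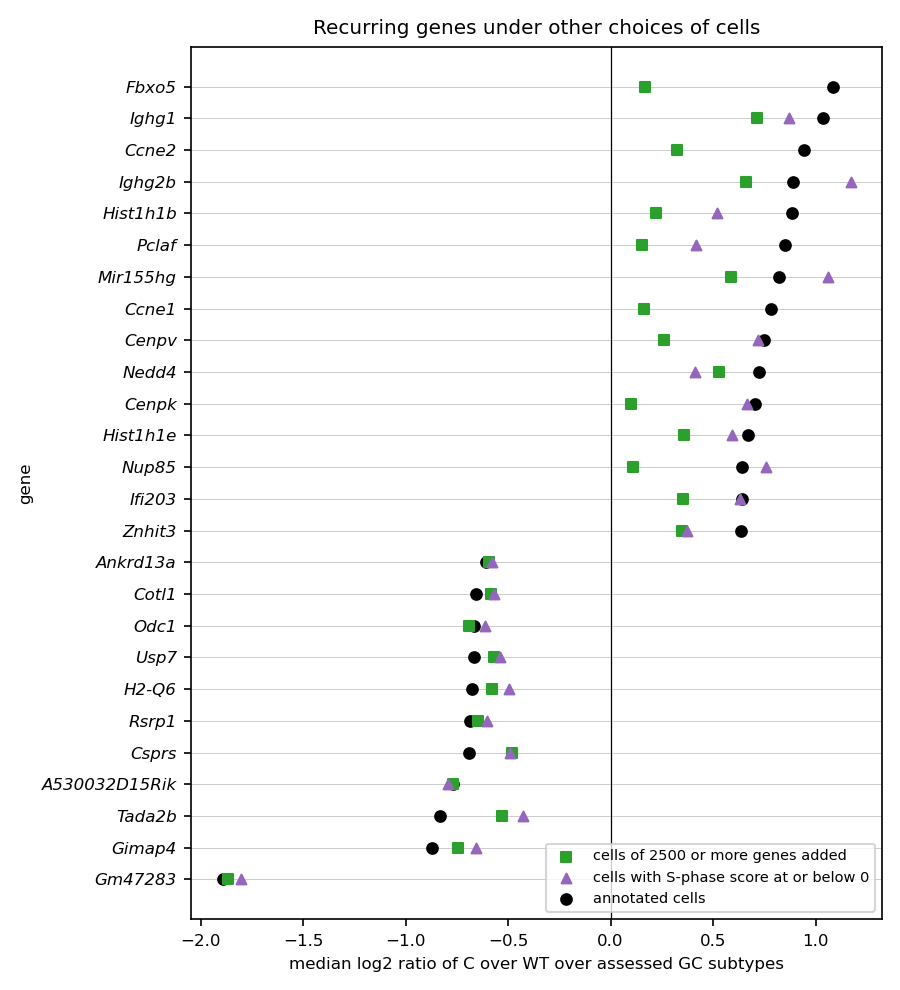
Median log2 ratio of C over WT over the assessed GC subtypes (x axis) for 26 of the 27 recurring genes (y axis) in annotated cells (black circles), with cells of 2500 or more genes added (green squares) and in cells with an S-phase score at or below 0 (purple triangles, absent where under 50 UMIs). Among lower genes Odc1 goes from -0.67 to -0.69, whereas Fbxo5 goes from 1.08 to 0.17 and Pclaf from 0.85 to 0.15 with the added cells.

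The cell cycle moved with these values. Cells with a submitted S-phase score above 0 made up 21.9% of CB in WT and 41.6% in C, and 37.4% and 43.8% of trans_CB_CC. Of the S phase list, 6 of 19 assessed genes were called higher and 0 lower in CB and 4 of 20 higher and 0 lower in trans_CB_CC, with median log2 ratios of 0.48 and 0.31, where 5.43% and 2.55% of all genes were called higher. The other subtypes showed no such shift, with medians of -0.01 in early CB (3 of 19 higher and 1 lower), 0.09 in CC (0 of 12 higher and 1 lower) and -0.04 in prememory cells (0 of 10 called), and the median in T cells was -0.23. With the added cells the medians were -0.14 and -0.06, and in cells with a score at or below 0 they were -0.24 and 0.05. The G2M list had medians of 0.16 in CB and 0.24 in trans_CB_CC, with -0.01 and 0.02 after the cells were added. In cells with an S-phase score at or below 0, 4445 genes were assessed, and 3 lower and 4 higher genes recurred, of which 3 and 2 (Cenpv and Ighg1) were among the 12 and 15. Early CB had no such cells and left the comparison. Among the higher genes assessed there, Pclaf had a median of 0.42 and Hist1h1b of 0.52, while Ighg2b was at 1.17 and Mir155hg at 1.06, and none of these 4 recurred there. The part of the cell cycle in the recurring higher genes was not tested.

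The pair CK over K differs in Crebbp too and shares no library with C and WT. Like C beside WT, CK had fewer UMIs per cell than K, with medians of 3653 and 4759 in annotated cells and 2082 and 2892 in T cells. In CK over K, 10 of the 12 lower genes had a median log2 ratio below 0, against 37.6% of all 6882 genes assessed. Of the 15 higher genes 12 had one above 0, against 62.4%. The part of depth in these values was not tested. Recurrence in the same direction was found for 4 lower genes (among them Gm47283, Odc1 and Cotl1), against 0.538% of all genes, and for 3 higher genes (Hist1h1e, Hist1h1b and Nedd4), against 14.0%. Cotl1 had a median of -0.93, Odc1 of -0.59 and Gimap4 of -0.49. In T cells of CK over K, Cotl1 was at -0.75 and Odc1 at -0.65, so these were lower there as well. Tada2b (0.97) and Usp7 (0.77) went the other way. Log2 ratios of CK over K rose with transcript length, with Spearman's rho = 0.41 over 9603 genes in T cells, a correlation across genes, whereas in C over WT rho was between -0.14 and 0.01 in the 7 cell classes. The histone genes had medians of 2.97 and 2.94 in CK over K, and of -2.27 (Hist1h1e) and -1.92 (Hist1h1b) in K over WT, so these values turn on the K library. Crebbp had a median of -0.05 in CK over K. K carries no floxed Crebbp allele, but several recurring genes differed from WT in K as in C. Among lower genes, medians of K over WT were -0.60 for H2-Q6, -0.58 for Ankrd13a and -0.97 for Usp7. Odc1 (0.15) and Cotl1 (0.04) were among those not lower in K. Higher genes had 0.97 for Fbxo5, 1.27 for Ighg1 and 0.68 for Pclaf, but -0.63 for Ifi203 and -0.67 for Nedd4. Which library these values turn on was not tested.

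A looser limit of 1.3-fold gave 61 recurring lower (1.10%) and 87 recurring higher genes (1.57%). Crebbp was among the lower ones, and 28 lower and 66 higher genes had a ratio under 1.2-fold in T cells. With the added cells 61 of 61 lower genes stayed below 0 and 30 recurred at 1.3-fold, while 80 of 87 higher genes stayed above 0 and 14 recurred. Several B cell genes were among the lower ones and are named after their values were seen. Cd72, an inhibitory coreceptor of B cells, had 119 CPM in WT against 73.2 CPM in C in early CB, 75.0 and 44.0 CPM in trans_CB_CC, 265 and 177 CPM in CC, and 401 and 289 CPM in prememory cells. Its median log2 ratio was -0.58 in annotated cells, -0.63 with the added cells, 0.17 in T cells and -0.63 in CK over K. Il4ra, the IL-4 receptor alpha chain, was at 39.5 and 24.1 CPM in CB, at 68.5 and 46.9 CPM in trans_CB_CC and at 68.2 and 35.0 CPM in prememory cells, but at 67.8 and 79.6 CPM in CC, and had a median of 0.23 in CK over K. Spib, a transcription factor of mature B cells, was at 184 and 117 CPM in CB and at 193 and 140 CPM in prememory cells, with medians of -0.46 in C over WT and -0.40 in CK over K. With the added cells the median of Spib was -0.34 and it no longer recurred at 1.3-fold, while Il4ra still did, at -0.47.

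MHC class II genes, which depend on histone acetylation in GC B cells, did not recur in either direction. Of the 10 genes, 2 were called lower in early CB, 0 in CB, trans_CB_CC and CC, and 1 higher in prememory cells, where 4.65% of all genes were called lower in early CB and 3.90% higher in prememory cells. Their median log2 ratio was -0.28 in early CB, -0.09 in CB, -0.17 in trans_CB_CC, -0.01 in CC and 0.18 in T cells, beside a median over all genes of 0.08, -0.01, 0.01, 0.02 and -0.01. In prememory cells it was -0.09, beside 0.02 over all genes. Of the 10 genes, 9 were below 0 in early CB, 7 in CB, 10 in trans_CB_CC, 5 in CC and 7 in prememory cells. The shares of all genes below 0 were 41.4%, 51.6%, 48.8%, 46.5% and 47.5% in the same order. In T cells 3 of the 10 were below 0, against 51.8% of all genes. Ciita, the MHC class II transactivator, had 204 CPM in WT against 100 CPM in C in early CB, a log2 ratio of -1.03 (-1.59 to -0.45), 111 and 86.1 CPM in CB, and 217 and 196 CPM in CC. It was below WT in each of the 5 subtypes, called in 1, and above WT in T cells (0.40). With the added cells Ciita in early CB was at 102 and 80.2 CPM, a log2 ratio of -0.34, and in CB at -0.52. H2-Aa was at 3715 and 3067 CPM in early CB but at 1969 and 2290 CPM in CB, and Cd74 stayed within -0.15 to 0.12 on the log2 scale in the 5 subtypes.

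Bcl6, the repressor that maintains the GC, had 69.6 CPM in WT against 57.7 CPM in C in CB, 68.1 and 63.2 CPM in trans_CB_CC and 62.9 and 63.2 CPM in CC. Of the GC transcription factor list, 16 genes were assessed in at least 3 subtypes and 0 recurred in either direction, with a median of -0.10 over their medians, beside 0.02 over all genes. The light zone list had a median of -0.62 in early CB, where 6 of 11 genes were called lower and 1 higher (4.65% and 8.93% of all genes), but -0.08 in CB and 0.05 in CC, and 0 of its 15 genes recurred. Cd86 (median -0.08), Cd83 (0.12) and Cxcr4 (-0.15) were not called in any subtype assessed. Ccr6, Myc and Nr4a1 were too low to be assessed in 3 subtypes. B cell receptor signalling genes were below 0 in 11 of 17 cases in early CB, 17 of 20 in CB, 13 of 20 in trans_CB_CC, 12 of 20 in CC and 12 of 17 in prememory cells, against 41.4%, 51.6%, 48.8%, 46.5% and 47.5% of all genes, and 0 recurred.

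Among chromatin genes, Ep300, the paralog of Crebbp, had 82.1 CPM in WT against 80.8 CPM in C in CB, 97.5 and 88.8 CPM in trans_CB_CC and 88.0 and 96.1 CPM in CC, and was called in no subtype. Kmt2d was at 24.9 and 15.4 CPM in CB but at 16.4 and 27.6 CPM in CC, so its direction differed between subtypes. Ighm had 3312 CPM in WT against 2422 CPM in C in CB and 3067 and 2224 CPM in trans_CB_CC, with a median log2 ratio of -0.45, against -0.82 in T cells. Mitochondrially encoded genes were lower by similar amounts in all 7 cell classes, with medians between -0.24 and -0.15.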

How the data were processed

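B220+IgD- splenocytes were profiled by 10x Genomics 3' single-cell RNA-seq, with 1 library per genotype. The authors made the deposited UMI counts with Cell Ranger (3.0 in the submitters' notes, 3.0.2 in the matrix headers) on mm10, and Seurat 4.0 was used for their analysis. The deposited cell table gives subtype labels, which the authors assigned by label transfer, the percent of mitochondrial UMIs and module scores, from which the cell cycle score was taken as deposited. Deposited UMI totals equalled the matrix sums in 7834 of 9804 annotated cells, with a largest difference of 5.

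Raw counts were summed per library and subtype in subtypes with at least 30 cells in each library, and expressed as CPM. Intervals of ratios are exact conditional binomial. Where a library had no UMI of a gene, 3 counts stood in for 0. T cells and non-GC B cells were unannotated barcodes under 8% mitochondrial UMIs, and non-GC B cells had at least 3 UMIs of Cd79a, Cd79b and Ms4a1, no Cd3 UMI and no UMI of a set of GC genes that includes Rgs13, S1pr2, Mef2b, Gcsam and Mki67. Possible doublets were retained. Scrublet (scanpy 1.11.5, each library alone) called 1.63% of annotated cells in WT and 4.02% in C. Cells of 2500 or more genes took the most frequent label of their 25 nearest cells, and 80.0% of annotated cells received their own label in this way. Computation used scipy 1.17.1 with numpy 2.4.6, scikit-learn 1.9.0, pandas 2.3.3 and matplotlib 3.10.9. Ratios and recurrence were tested on simulated counts with known changes of 2-fold or more in every subtype. That setting does not cover changes near the 1.5-fold limit.

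The rule for named genes took up to 15 lowest and 15 highest recurring genes absent from T cells, 10 and 10 shared with them and 8 and 8 not measured in them, at 100 CPM or more in a subtype of 1 library, plus genes fixed for their role and recurring genes that a gene list holds. The members, lists and rules were chosen with earlier results of these data known. Coordinates are from GENCODE vM21 (GRCm38). Counts cover all recurring genes, and a few single genes are not reported here. Alternatives covered scaling, fold, UMI and subtype limits, thinning of cells, doublets, added cells, per-cell means and reference cells.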

Additional observations from a re-analysis of the deposited data

Results flagged for a closer look

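For 4 recurring higher genes the ratio of C over WT in T cells went against that in GC subtypes. The log2 ratio in T cells was -0.375 for Ccne1, -0.294 for Cenpk, -0.510 for Hist1h1b and -0.282 for Ighg2b, against medians of 0.78, 0.70, 0.89 and 0.89 over the GC subtypes assessed. The interval in T cells included 0 for Ccne1 (-0.78 to 0.02) and Cenpk (-0.78 to 0.18). For Ighg2b 1 T cell gave 66 of the 248 UMIs in WT, and without the highest cell of each library the log2 ratio was -0.045. Its UMIs were in 5.85% of T cells in WT and 3.88% in C, beside 75.3% and 66.4% for Ighm. The part of B cell transcripts in these T cell values was not tested, so the Ighg2b ratio cannot be read as an opposite change in T cells. Ccne1, Cenpk and Hist1h1b are genes of the dividing cell, and the S phase list had a median of -0.23 in T cells. With 1 library per genotype the difference between GC subtypes and T cells was not tested.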

How the results depend on the processing

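No paired analysis was possible because each genotype was 1 library. Counts below are recurring lower, recurring higher, lower absent from T cells and higher absent from T cells, which were 12, 15, 2 and 9. They were 1, 0, 0 and 0 at 2-fold, 61, 87, 28 and 66 at 1.3-fold, 22, 27, 5 and 14 at 30 UMIs or more, and 6, 5, 0 and 3 at 100 UMIs or more. They were 1, 2, 0 and 1 with at least 4 subtypes and 53, 77, 34 and 53 with at least 2. In cells with an S-phase score at or below 0, chosen after seeing the data, they were 3, 4, 0 and 2. With each cell thinned to 2000 UMIs, lower were 6, higher 3 and higher absent 1, and the median of Crebbp was -0.81. With cells of 2500 or more genes added, higher were 7 and higher absent 2. Higher absent were 4 without Scrublet calls, which kept 12 lower and 14 higher genes of the main ones, and 5 with non-GC B cells as reference. Lower absent were 4 with immunoglobulin, mitochondrial and ribosomal genes out of the total, and 0 with per-cell means and with CD4 T cells. With absence set under 1.5-fold, lower absent were 9 and higher absent 15. With the highest cell of each gene left out in each class and library, also chosen after seeing the data, lower were 11 (all among the 12, Ankrd13a being lost), higher 20 (14 among the 15, Hist1h1b being lost), lower absent 1 and higher absent 12, and 1 cell is a larger share of the smaller WT classes. Counts not given for a setting stayed within 1.5 times. Median-ratio scaling kept all 12 lower and 15 higher genes and added 1 lower gene, and in CK over K it left 21 of 27 on the same side, against 22. No recurring gene that could be assessed changed the sign of its median in these settings. List medians did in places, as for S phase in CB, which was above 0 in annotated cells. That median was below 0 with cells of 2500 or more genes added and in cells with an S-phase score at or below 0. The cause of these changes was not tested, except that stricter limits assess fewer genes (3724 at 100 UMIs, 3239 after thinning). At 50 UMIs a 1.5-fold ratio often has an interval that includes 0, so calls near the limit are within counting error.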

Other observations

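Oxidative phosphorylation genes were above 0 in 62 of 75 cases in early CB, 51 of 83 in CB, 70 of 85 in trans_CB_CC, 59 of 83 in CC and 51 of 78 in prememory cells, against 58.6%, 48.5%, 51.2%, 53.5% and 52.6% of all genes, with median log2 ratios of 0.18, 0.04, 0.15, 0.09 and 0.13, but also in 60 of 85 in T cells and 68 of 86 in non-GC B cells (0.08 and 0.11), where 48.2% and 48.1% of all genes were above 0. Cytosolic ribosomal protein genes had medians between -0.10 and -0.02 in the 7 cell classes. Proteasome genes had a median of 0.27 in early CB, where 6 of 34 were called higher, against 8.93% and a median of 0.08 over all genes, but -0.07 in CB and 0.06 in trans_CB_CC.

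Hemoglobin genes summed to 87.7 CPM in WT and 1141 CPM in C in trans_CB_CC and to 21.4 and 1423 CPM in non-GC B cells, while T cells had 1030 and 538 CPM. The other GC subtypes had 45.4 to 106 CPM in WT and 38.0 to 97.2 CPM in C. Whether a few cells carried the high sums was not tested. Y-linked Ddx3y was present in all 4 libraries, with 1514 UMIs in K and 2378 in CK, beside 0 and 13 UMIs of Xist.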
